A study of Mus musculus with 12 samples.

Results

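Polycomb complexes 1 and 2 were followed through 36 genes that encode their subunits, taken as every probe set on the arrays that carries the symbol of 1 of these genes and of no other gene. Of the 36 genes, 35 were measured, on 39 probe sets, among 19938 genes and 35557 probe sets on the arrays. The exception was Cbx6, a chromobox subunit, which lay only on a probe set naming several genes. Messenger RNA was measured on 12 arrays from Esrrb_R mouse embryonic stem (ES) cells, with 3 biological replicates at each of days 0, 1, 3 and 5. Esrrb_R is a single rescue clone of the AINV15 line, which expresses the reverse tetracycline transactivator. In all groups a constitutive short hairpin RNA targets the endogenous Esrrb transcript, and an Esrrb transgene linked to GFP that the hairpin cannot target is transcribed only with doxycycline (Dox). Day 0 cells were grown with 1 µg/ml Dox, and cells of days 1, 3 and 5 were grown without it for that many days, all in serum and Lif on gelatin. The line itself was maintained on mouse embryonic fibroblasts. No group without the transgene or without the hairpin was analysed here, so the effects of Esrrb loss, of Dox removal and of time in culture cannot be told apart.

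Polycomb complexes are repressors of developmental genes that were first defined in flies. Polycomb repressive complex 2 (PRC2) methylates lysine 27 of histone H3 through Ezh1 or Ezh2, with Eed and Suz12 as the obligatory partners, and its accessory subunits guide it to CpG-rich chromatin or tune its activity. Polycomb repressive complex 1 (PRC1) ubiquitinates histone H2A through Ring1 or Rnf2. Canonical PRC1 carries a chromobox (Cbx) protein that binds the PRC2 mark, a polyhomeotic (Phc) protein and the PCGF protein Pcgf2 or Bmi1, whereas variant PRC1 carries Rybp or Yaf2 with another PCGF protein and does not need that mark for recruitment. In ES cells both complexes occupy silent regulators of development, and some subunits, such as Cbx7 and Phc1, predominate there over paralogs that other cells use.

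The RefSeq promoter table (build GRCm38.p6, 250 bases before to 50 bases after each transcription start) held 45 promoters of 32 of the 36 genes and none for Cbx2, Pcgf1, Rybp and Yaf2. The 300-base windows of these genes were richer in CpG than 19177 windows of 15614 of the 19938 genes on the arrays. The medians were 24 CpG dinucleotides and 64.3% G and C against 15 and 57.3%. The core of the Esrrb binding motif, AAGGTCA, searched on both strands, was in 0 of the 45 windows and in 3.82% of the 19177, which says only that these letters are not in these windows. The 250 bases before the start are shown for 4 genes on which the results turn and for which the table lists a single start. Phf19 fell within 1 day, Eed fell progressively, and Phc1 and Cbx7 were higher at day 3 and lower at day 5. Each is printed 5′ to 3′ on the strand of the gene with CpG dinucleotides in capitals.
Phf19, chr2:34913977-34914226, minus strand: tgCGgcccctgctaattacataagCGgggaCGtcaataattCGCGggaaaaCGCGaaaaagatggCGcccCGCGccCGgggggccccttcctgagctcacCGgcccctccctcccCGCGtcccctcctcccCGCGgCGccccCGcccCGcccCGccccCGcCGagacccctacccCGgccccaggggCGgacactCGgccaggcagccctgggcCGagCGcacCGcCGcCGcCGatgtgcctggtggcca
Eed, chr7:89980977-89981226, minus strand: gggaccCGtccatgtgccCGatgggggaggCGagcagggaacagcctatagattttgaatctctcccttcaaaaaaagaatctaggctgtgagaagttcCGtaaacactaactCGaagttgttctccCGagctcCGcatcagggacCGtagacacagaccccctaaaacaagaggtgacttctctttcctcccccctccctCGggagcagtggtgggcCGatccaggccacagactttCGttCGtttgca
Phc1, chr6:122340228-122340477, minus strand: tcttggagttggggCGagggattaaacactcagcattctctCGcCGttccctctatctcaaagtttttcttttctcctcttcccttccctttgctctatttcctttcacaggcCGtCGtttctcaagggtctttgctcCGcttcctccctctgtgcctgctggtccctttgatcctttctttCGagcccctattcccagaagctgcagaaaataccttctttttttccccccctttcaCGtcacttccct
Cbx7, chr15:79932647-79932896, minus strand: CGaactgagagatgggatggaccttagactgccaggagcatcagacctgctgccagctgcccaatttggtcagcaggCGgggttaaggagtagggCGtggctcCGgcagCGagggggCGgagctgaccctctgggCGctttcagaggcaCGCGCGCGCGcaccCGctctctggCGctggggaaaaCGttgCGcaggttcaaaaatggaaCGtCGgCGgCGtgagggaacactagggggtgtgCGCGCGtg
The printed stretches hold 31 CpG dinucleotides for Phf19, 12 for Eed, 8 for Phc1 and 23 for Cbx7. Over the 300-base windows these 4 genes, all lower at day 5, ranged from 9 CpG dinucleotides for Phc1 to 38 for Phf19, beside the median of 15.

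The values are log2 signals made by the authors with the Robust Multichip Average, and a gene is the mean of its single-symbol probe sets. The depletion itself was checked first. Esrrb signal was 11.59 ± 0.047 (SD, n = 3) at day 0, 9.13 ± 0.041 at day 1, 8.20 ± 0.14 at day 3 and 8.19 ± 0.084 at day 5, a log2 change of -3.40 ± 0.072 (SE) by day 5. Every array correlated with the other 2 of its day at 0.996 or more over all genes, and no array stood apart. The 9 ES cell markers include Esrrb itself, the factor depleted by design. Of the 9, 8 were called lower at day 5, Esrrb among them. Across the 9 the log2 of the summed signal was 15.13 to 15.19 on the day 0 arrays and 14.55 to 14.58 on the day 5 arrays. Across 16 fibroblast markers it was 13.47 to 13.52 at day 0, 13.30 to 13.38 at day 1, 12.72 to 12.84 at day 3 and 13.32 to 13.57 at day 5. At day 3 limma called 10 of the 16 lower, collagens and Vim among them, and 1, Thy1, higher (log2 change 0.37, adjusted p 0.0174). Lum and Fap lay between 4.34 and 4.81 on the 12 arrays, near the bottom of the scale. In bulk RNA a smaller share of cells and less RNA per cell cannot be told apart.

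The Polycomb genes changed by small amounts in both directions, and the number that changed grew with time. Genes were called with limma at a Benjamini-Hochberg adjusted p under 0.05 over all 19938 genes. By day 1 the calls were 3 increases and 3 decreases against day 0, which is 17.1% of the 35 against 10.9% of all genes (6.45% higher and 4.48% lower). At day 3, 7 were higher and 9 lower, 45.7% against 26.6% of all genes (13.5% higher and 13.1% lower). At day 5, 11 were higher and 12 lower, 65.7% against 35.0% of all genes (17.4% higher and 17.6% lower). Bright genes are called more often, and 34 of the 35 genes, all but Scml2, had a mean signal at or above the median of all genes. Among genes above that median 17.6%, 39.4% and 52.6% were called at days 1, 3 and 5, beside 17.6%, 47.1% and 64.7% of the 34. The median size of the log2 change in the 34 was 0.27 at day 5 against 0.20 in the bright genes, and the median signed change of the 35 was 0.00 at day 5. No gene of the set changed by 2-fold at any day.

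**Figure D1:**
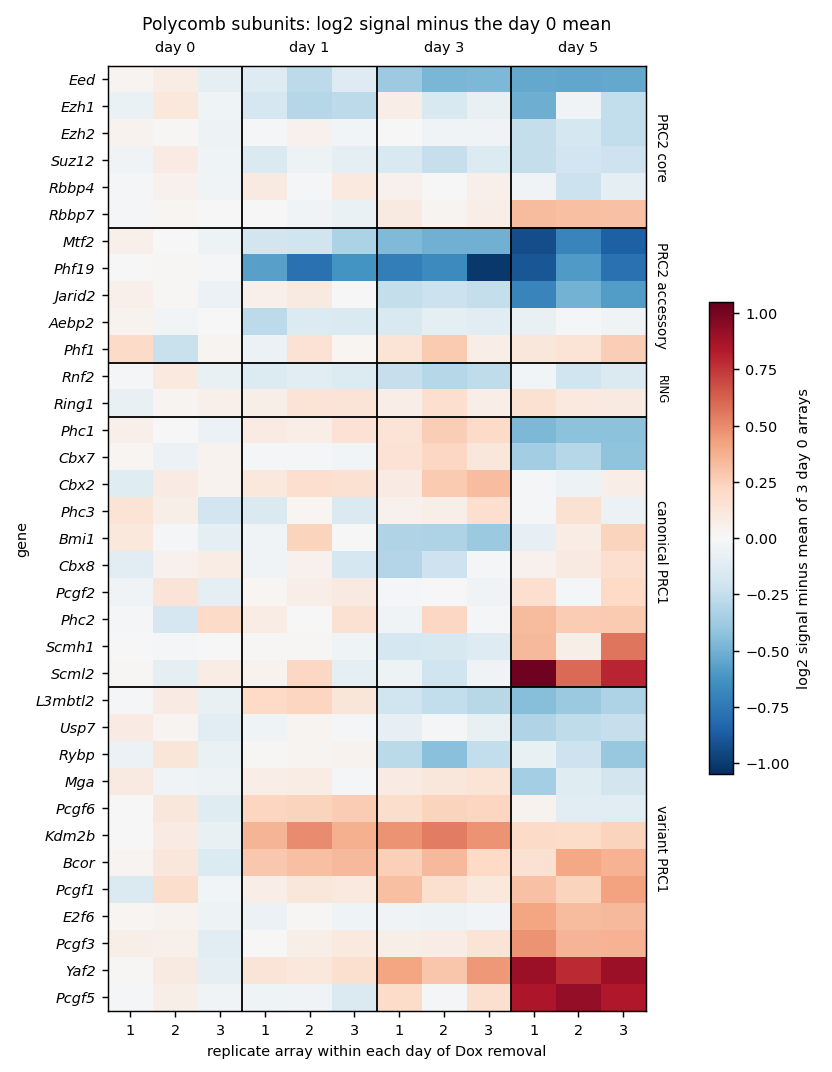
Log2 signal of 35 Polycomb genes on each of the 12 arrays (columns, 3 replicates a day) minus the mean of the 3 day 0 arrays, as colour, with genes in rows grouped by subunit class and sorted within a class by their change at day 5. The accessory subunits Mtf2, Phf19 and Jarid2 turn blue on all day 5 arrays, while Yaf2 and Pcgf5 turn red.

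The timing differed between genes. Over the course as a whole 27 of the 35 genes were called by the moderated F test of limma, beside 45.6% of all genes. Of the 23 genes called at day 5, 11 had not been called at day 1 or 3. Mtf2, Phf19, Kdm2b and Bcor were called at all 3 days in a fixed direction. Rnf2, Bmi1, Cbx2 and Pcgf6 were called at day 3 and not at day 5. Ezh1, Rbbp4, Phf1, Ring1, Cbx8, Phc3 and Pcgf2 were called at no day. From day 1 to day 3, 2 genes rose (9.2% of all genes) and 6 fell (11.6% of all genes), 22.9% of the set against 20.8% of all genes. From day 3 to day 5, 9 rose (13.0% of all genes) and 10 fell (12.2% of all genes), 54.3% against 25.3%. The shares for these steps and for the F test are over all genes. Genes above the median signal, which are called more often, were not counted apart for them.

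**Figure D2:**
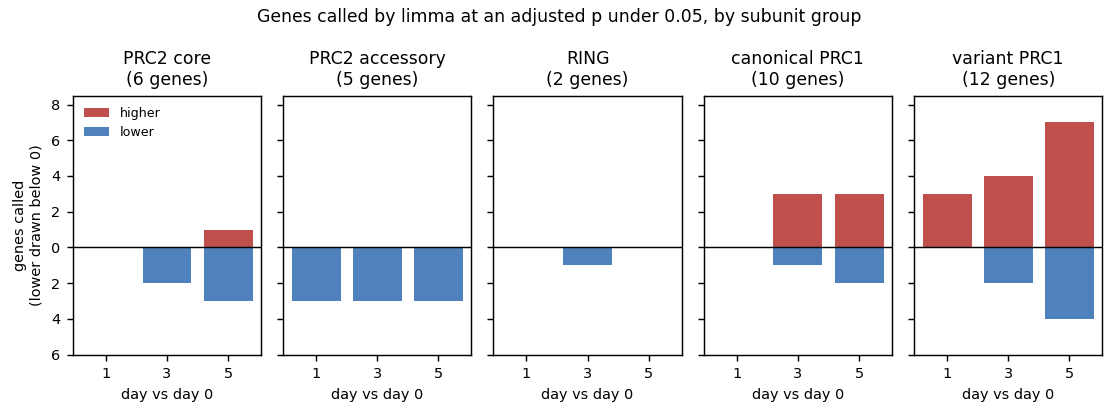
Number of genes called higher (above 0) and lower (below 0) than day 0 by limma at an adjusted p under 0.05, in 5 classes of Polycomb subunit at days 1, 3 and 5. PRC2 accessory subunits were called in 1 direction only, with 3 of 5 lower at each day, and variant PRC1 had 7 of 12 higher and 4 of 12 lower at day 5. Of all genes 4.48%, 13.1% and 17.6% were lower at days 1, 3 and 5, and 17.4% were higher at day 5.

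Among the PRC2 core subunits 3 of 6 fell by day 5 and 1 rose, beside 17.6% and 17.4% of all genes. Eed, the subunit that reads the PRC2 mark and activates the enzyme, had log2 signals of 8.64, 8.69 and 8.52 at day 0, 8.48, 8.34 and 8.48 at day 1, 8.24, 8.14 and 8.15 at day 3, and 8.08, 8.07 and 8.08 at day 5. The arrays of each later day lay below all day 0 arrays, and the day 5 arrays below those of day 3. The log2 change was -0.18 ± 0.063 (SE) at day 1, -0.44 ± 0.063 at day 3 and -0.54 ± 0.063 at day 5 (adjusted p in limma of 0.0811, 0.000155 and 1.56e-05). Eed is an average of a bright and a dim probe set. The bright set, 10565486, matches the Eed mRNA and fell by 0.33, 0.72 and 0.88 at days 1, 3 and 5 (adjusted p over all probe sets 0.00649, 1.06e-05 and 1.44e-06 in limma). The dim set, 10554837, is annotated to a single cDNA clone, averaged 5.54 over the arrays and changed by -0.20 at day 5 (adjusted p 0.206 in limma), so the mean understates the change of the bright set.

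The other core subunits moved less. Ezh2, the methyltransferase that predominates in dividing cells, had day 0 signals of 11.99 to 12.09 and day 5 signals of 11.79 to 11.86, a log2 change of -0.23 ± 0.052 (SE) at day 5 (adjusted p 0.00318 in limma) after -0.03 at day 3. Suz12, the scaffold of the complex, changed by -0.18 at day 3 and -0.22 at day 5 (adjusted p 0.0308 and 0.00703 in limma), and the day 3 call was lost under 5 of 19 alternatives, the replicate block among them. Rbbp7, a histone-binding protein shared with other chromatin complexes, lay at 12.43 to 12.46 at day 0 and at 12.75 to 12.77 at day 5, a rise of 0.32 ± 0.048 (SE, adjusted p 0.00017 in limma). Both of its probe sets rose, by 0.30 and 0.33. Its paralog Rbbp4 changed by -0.12 (adjusted p 0.155) and Ezh1 by -0.27 (adjusted p 0.0617), with overlapping Ezh1 arrays at days 0 and 5. At day 1 limma called 0 of the 6 core subunits, and 2 had an unadjusted p under 0.05.

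The accessory subunits of PRC2 held all 3 decreases called at day 1 and, taking genes as means of their probe sets, the 3 largest decreases at day 5. Mtf2, a Polycomb-like protein that brings PRC2 to CpG islands, had log2 signals of 12.61, 12.56 and 12.50 at day 0, 12.37, 12.35 and 12.22 at day 1, 12.10, 12.05 and 12.06 at day 3, and 11.63, 11.86 and 11.70 at day 5. No array of any day overlapped those of another day, and the signal fell at each step. The log2 change from day 0 was -0.25 ± 0.067 (SE) at day 1, -0.49 ± 0.067 at day 3 and -0.83 ± 0.067 at day 5 (adjusted p 0.0341, 0.000126 and 6.76e-07 in limma). The day 1 call was lost, at adjusted p up to 0.145, when any array of day 1 or either of replicates 1 and 2 of day 0 was left out, and with only the arrays of the days compared. It was lost too with every probe set tested (adjusted p 0.0675 in limma). The calls at days 3 and 5 held under every alternative run.

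Phf19, another Polycomb-like protein, reached its low level within 1 day. Its signals were 8.005, 8.024 and 7.995 at day 0, 7.435, 7.228 and 7.377 at day 1, 7.283, 7.343 and 6.995 at day 3, and 7.113, 7.409 and 7.223 at day 5. All 9 later arrays lay below the 3 of day 0 and overlapped among themselves. The means of days 1, 3 and 5, 7.35, 7.21 and 7.25, lay near the median signal of all genes, 7.33. Whether the signal of Phf19 had reached the background of the arrays by then was not tested. Its change on the log2 scale was -0.66 ± 0.096 (SE) at day 1, -0.80 ± 0.096 at day 3 and -0.76 ± 0.096 at day 5 (adjusted p 0.000764, 4.08e-05 and 3.6e-05 in limma), and between days 1 and 3 and between days 3 and 5 it was not called (adjusted p 0.371 and 0.813).

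Jarid2, a DNA-binding subunit that stimulates PRC2 and belongs to another form of the complex than the Polycomb-like proteins, moved later. Its signals were 12.20, 12.16 and 12.08 at day 0, 12.20, 12.24 and 12.15 at day 1, 11.89, 11.92 and 11.89 at day 3, and 11.45, 11.65 and 11.56 at day 5. Days 0 and 1 overlapped, and both later days lay below them. The log2 change was 0.05 ± 0.060 (SE) at day 1, -0.24 ± 0.060 at day 3 and -0.59 ± 0.060 at day 5 (adjusted p 0.676, 0.00896 and 5.4e-06 in limma). Aebp2, which shares a PRC2 form with Jarid2, changed by -0.19 at day 1 (adjusted p 0.0411 in limma, lost under 12 of 19 alternatives) and by -0.05 at day 5. The Polycomb-like protein Phf1 changed by 0.17 at day 5 (adjusted p 0.224), with overlapping arrays.

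**Figure D3:**
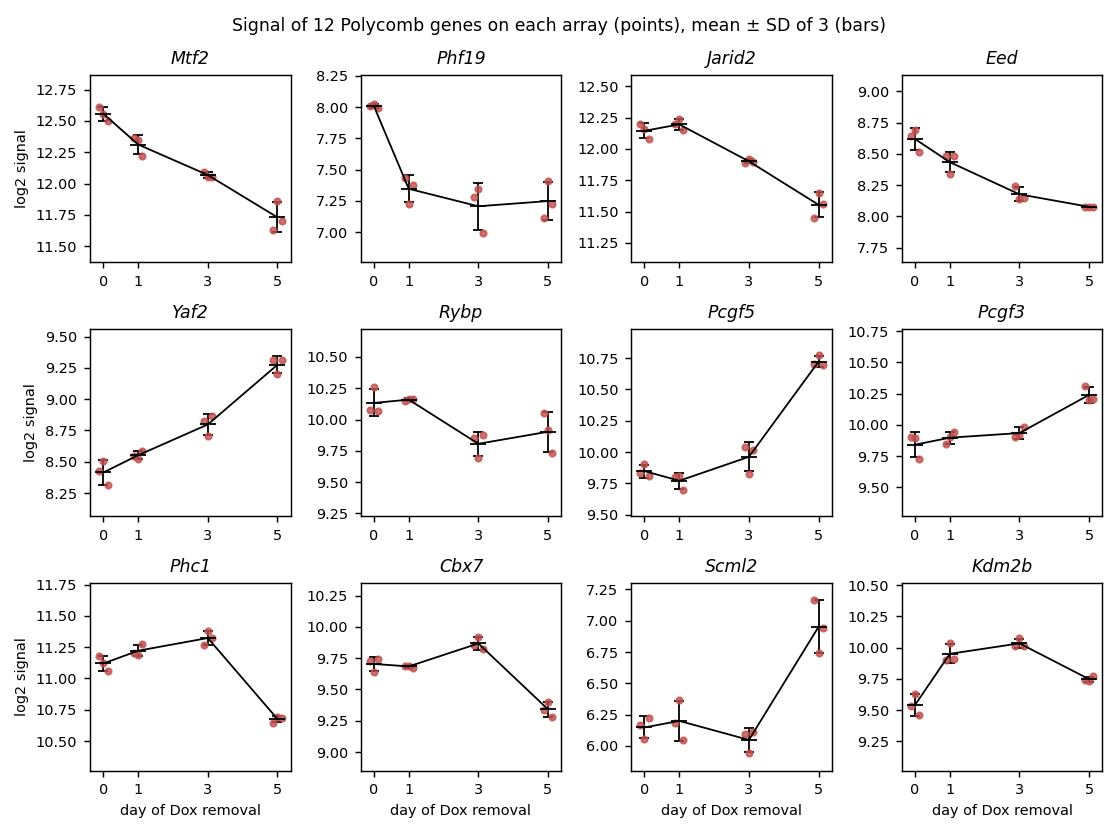
Log2 signal (vertical axis, the same span in every panel) of 12 Polycomb genes on each array (points) against the day of Dox removal, with bars for the mean ± SD of 3 arrays. Phf19 is at its low level by day 1, Mtf2 falls at every step, and Pcgf5, Scml2, Phc1 and Cbx7 change mainly between days 3 and 5.

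Of the catalytic RING subunits of PRC1, Rnf2 was lower at day 3 and neither was called at day 5. Rnf2, the main H2A ligase of ES cells, lay at 10.76 to 10.94 at day 0, 10.54 to 10.60 at day 3 and 10.63 to 10.81 at day 5. Its log2 change was -0.27 ± 0.063 (SE) at day 3 and -0.13 ± 0.063 at day 5 (adjusted p 0.00658 and 0.132 in limma). Ring1 changed by 0.12, 0.11 and 0.12 at the 3 days, called at none, although its day 5 arrays lay just above those of day 0. At day 5 limma called 0 of the 2, and 0 had an unadjusted p under 0.05.

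In canonical PRC1 the ES cell subunits Phc1 and Cbx7 were higher than day 0 at day 3 and lower at day 5. Phc1, the main polyhomeotic protein of ES cells, had log2 signals of 11.18, 11.12 and 11.06 at day 0, 11.21, 11.19 and 11.27 at day 1, 11.27, 11.38 and 11.32 at day 3, and 10.65, 10.69 and 10.69 at day 5. The day 3 arrays lay above and the day 5 arrays below every day 0 array. Relative to day 0 its log2 signal changed by 0.20 ± 0.055 (SE) at day 3 and -0.44 ± 0.055 at day 5 (adjusted p 0.0144 and 2.89e-05 in limma), and from day 3 to day 5 by -0.65 ± 0.055 (adjusted p 3.44e-06).

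Cbx7, the chromobox protein that predominates in ES cells, was also higher at day 3 and lower at day 5. Its signals were 9.73, 9.64 and 9.74 at day 0, 9.69, 9.69 and 9.67 at day 1, 9.85, 9.92 and 9.83 at day 3, and 9.34, 9.40 and 9.28 at day 5. Days 0 and 1 overlapped, day 3 lay above and day 5 below them. The log2 change was 0.16 ± 0.055 (SE) at day 3, -0.36 ± 0.055 at day 5 and -0.53 ± 0.055 from day 3 to day 5 (adjusted p 0.0424, 0.00016 and 1.63e-05 in limma). The rise at day 3 is the less certain step. It lost its call under 11 of 19 alternatives for Cbx7 and under 3 of 19 for Phc1, centring the arrays on their medians among them for both, while both decreases at day 5 held under all 19.

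The remaining canonical subunits changed in both directions. Scml2, a germline-associated SCM protein, was the only gene of the set with a mean signal over the 12 arrays below the median of all genes. It lay at 6.16, 6.05 and 6.23 at day 0, 6.18, 6.37 and 6.05 at day 1, 6.09, 5.94 and 6.11 at day 3, and 7.17, 6.74 and 6.94 at day 5. Only the day 5 arrays stood above the rest, a log2 change of 0.80 ± 0.11 (SE, adjusted p 4.99e-05 in limma). Scmh1, another SCM protein, rose by 0.32 (adjusted p 0.016), a call lost without replicate 3 of day 5 (log2 change 0.20) and with only the arrays of the days compared, and Phc2 rose by 0.29 (adjusted p 0.0275), a call lost under 5 of 19 alternatives. Bmi1, a PCGF protein of canonical PRC1, fell by 0.34 at day 3 (adjusted p 0.0138 in limma, lost under 2 of 19 alternatives) and was 0.08 from day 0 at day 5, a rise of 0.42 from day 3 to day 5 (adjusted p 0.00437). The chromobox protein Cbx2 was 0.23 higher at day 3 (adjusted p 0.0381, lost under 9 of 19 alternatives) and 0.00 from day 0 at day 5. Cbx8, Phc3 and Pcgf2 changed by 0.10, 0.03 and 0.12 at day 5 and were not called. At day 1 limma called 0 of these 10 genes, and 0 had an unadjusted p under 0.05. The high points of Phc1 and Cbx7 and the low points of Rnf2 and Bmi1 at day 3 came on the arrays where the fibroblast markers were lowest (12.72 to 12.84, against 13.32 to 13.57 at day 5). From day 3 to day 5, 8 of the 16 markers rose and 1 fell. Their part in these values was not tested.

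Variant PRC1, the largest class, held the largest increases and the most genes called. At day 5, 11 of 12 were called, 91.7% against 35.0% of all genes and 52.6% of those above the median signal. Over the course 12 of 12 were called, beside 45.6% of all genes. Pcgf5, which defines a variant complex together with Pcgf3, had log2 signals of 9.83, 9.91 and 9.81 at day 0, 9.80, 9.81 and 9.70 at day 1, 10.04, 9.83 and 10.02 at day 3, and 10.70, 10.77 and 10.69 at day 5. Day 0 overlapped both day 1 and day 3, and day 5 stood clear of all of them. In log2 units the change was 0.11 ± 0.066 (SE) at day 3 and 0.87 ± 0.066 at day 5 (adjusted p 0.251 and 3.47e-07 in limma). Its paralog Pcgf3 lay at 9.73 to 9.90 at day 0 and at 10.20 to 10.31 at day 5, a rise of 0.40 ± 0.063 (adjusted p 0.000228).

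Yaf2, the paralog of Rybp that binds the RING subunit in its place, was higher at days 3 and 5. Its signals were 8.42, 8.51 and 8.31 at day 0, 8.55, 8.53 and 8.59 at day 1, 8.82, 8.70 and 8.87 at day 3, and 9.31, 9.20 and 9.32 at day 5. No array of any day overlapped those of another day. The log2 change was 0.14 ± 0.066 (SE) at day 1, 0.38 ± 0.066 at day 3 and 0.86 ± 0.066 at day 5 (adjusted p 0.229, 0.000746 and 4.04e-07 in limma). Rybp itself lay at 10.07 to 10.26 at day 0, 9.70 to 9.87 at day 3 and 9.73 to 10.05 at day 5. It fell by 0.33 ± 0.083 at day 3 (adjusted p 0.0105 in limma) and by 0.23 ± 0.083 at day 5 (adjusted p 0.0476), and the day 5 call was lost under 11 of 19 alternatives. Rybp is an average of probe sets 10546706 and 10410209, which are annotated to the same transcript and changed by -0.39 and -0.26 at day 3. At day 5 they changed by -0.28 and -0.18, and neither was called alone (adjusted p over all probe sets 0.0905 and 0.137 in limma). The RefSeq table also lists a transcribed Rybp pseudogene, and signal from it could not be separated.

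Of 4 genes of the Pcgf1 complex, the CpG-binding protein Kdm2b and the corepressor Bcor were called from day 1, and Pcgf1 and Usp7 only at day 5. Kdm2b had log2 signals of 9.53, 9.63 and 9.46 at day 0, 9.90, 10.04 and 9.91 at day 1, 10.02, 10.08 and 10.01 at day 3, and 9.74, 9.73 and 9.77 at day 5. Every later array lay above the day 0 arrays, with days 1 and 3 highest. Its difference from day 0 was 0.41 ± 0.060 (SE), 0.49 ± 0.060 and 0.21 ± 0.060 at days 1, 3 and 5 (adjusted p 0.000804, 4.54e-05 and 0.016 in limma), and the day 5 call was lost under 3 of 19 alternatives. Bcor rose by 0.31, 0.27 and 0.31 (adjusted p 0.0236, 0.0249 and 0.00776), with the first call lost under 5 of 19 alternatives and the second under 4. Both of these calls were also lost with every probe set tested (adjusted p 0.0562 and 0.0517 in limma). Pcgf1 reached 0.32 at day 5 (adjusted p 0.0103), lost without replicate 1 of day 0 or replicate 3 of day 5. Usp7, a deubiquitinase found with this complex, fell by 0.28 ± 0.059 at day 5 (adjusted p 0.00252 in limma).

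The Pcgf6 complex, which holds L3mbtl2, E2f6 and Mga and represses germline genes, split in direction. L3mbtl2, a reader of methylated histones, lay at 10.56 to 10.72 at day 0, 10.76 to 10.86 at day 1, 10.34 to 10.42 at day 3 and 10.18 to 10.31 at day 5. It fell by 0.25 ± 0.060 (SE) at day 3 and by 0.39 ± 0.060 at day 5 (adjusted p 0.00684 and 0.000197 in limma). The sequence-specific repressor E2f6 lay at 9.66 to 9.75 at day 0 and 10.05 to 10.13 at day 5, a rise of 0.36 ± 0.052 (adjusted p 9.91e-05) after -0.04 at day 3. Mga, the DNA-binding partner of Max, fell by 0.23 at day 5 (adjusted p 0.0195 in limma), a call lost without replicate 1 of day 0 or replicate 1 of day 5 and with only the arrays of the days compared. Pcgf6 was 0.24 and 0.21 higher at days 1 and 3 (adjusted p 0.038 and 0.0335, lost under 10 and 8 of 19 alternatives) and -0.06 from day 0 at day 5.

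Whether alternative subunits changed differently was tested on the difference of their log2 signals on each array, by an exact permutation test of the spread between days over all 15400 partitions of the arrays, adjusted over 15 pairs. The level of such a difference compares different probe sets and is not read, only its change between days. Phc2, Cbx8, Phf1, Phf19 and Ring1 averaged 7.49, 7.42, 7.71, 7.45 and 7.80, nearer the median signal of all genes, 7.33, than their partners. Whether low signal limited their changes was not tested. Of the 15 pairs 13 passed, with the smallest p that the test allows, 6.5e-05, for Rybp against Yaf2. Pairs of other genes were not tested, so no share over all genes stands beside this count. Taken singly, 45.6% of all genes were called over the course by the moderated F test of limma. The pairs were chosen with earlier results of these data known. Rybp minus Yaf2 changed by -0.11 at day 1, -0.71 at day 3 and -1.09 at day 5 (95% interval -1.27 to -0.91, exact permutation adjusted p 0.00097, lower on 3 of 3 arrays at each day). Within polyhomeotic proteins, Phc1 minus Phc2 changed by -0.74 (95% interval -0.98 to -0.49, exact permutation adjusted p 0.011) and Phc1 minus Phc3 by -0.47 (-0.69 to -0.26, adjusted p 0.0066) by day 5, with 3 of 3 arrays lower in both. Within chromobox proteins, Cbx7 minus Cbx8 changed by -0.47 at day 5 (-0.72 to -0.21) after 0.34 at day 3 (exact permutation adjusted p 0.0053). Cbx7 minus Cbx2 changed by -0.36 at day 5 (-0.59 to -0.14, exact permutation adjusted p 0.02), a call lost without replicate 3 of day 0 or of day 5.

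**Figure D4:**
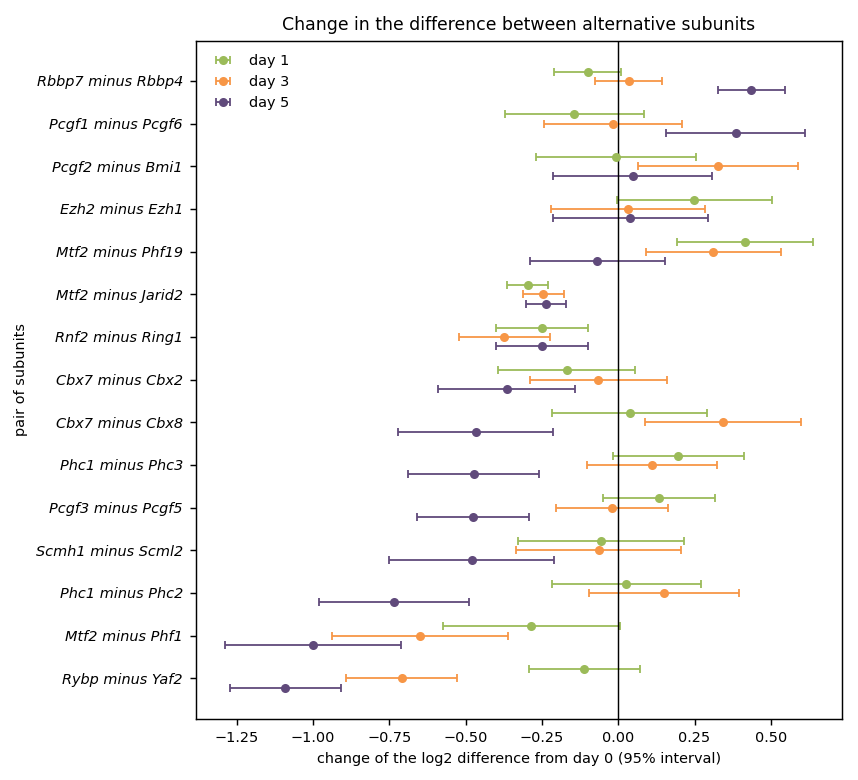
Change from day 0 in the log2 difference between 2 alternative Polycomb subunits (horizontal axis, points for days 1, 3 and 5, bars for 95% intervals from the spread within days), for 15 pairs. Rybp minus Yaf2 and Mtf2 minus Phf1 fell furthest by day 5, and Rbbp7 minus Rbbp4 rose most.

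In PRC2 the 3 Polycomb-like proteins followed different courses. Mtf2 minus Phf1 changed by -0.999 at day 5 (95% interval -1.29 to -0.71, exact permutation adjusted p 0.00097). Mtf2 minus Phf19 changed by 0.42 at day 1 and 0.31 at day 3, when Phf19 had fallen further, and by -0.07 at day 5 (-0.29 to 0.15) (exact permutation adjusted p 0.0066 over the course). Mtf2 minus Jarid2 was lower by day 1, at -0.30, and was -0.24 at day 5 (-0.30 to -0.17, exact permutation adjusted p 0.0066), the full size of which was reached by day 1. Rbbp7 minus Rbbp4 changed by 0.44 at day 5 (0.33 to 0.55, exact permutation adjusted p 0.00097). Ezh2 minus Ezh1 did not pass (0.04 at day 5, -0.21 to 0.29, exact permutation adjusted p 0.18), an interval that leaves room for a difference of either sign.

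In PRC1, Rnf2 minus Ring1 was lower at every later day, by -0.25, -0.37 and -0.25 at days 1, 3 and 5 (exact permutation adjusted p 0.0053), although neither gene was called at days 1 and 5. Pcgf1 minus Pcgf6 changed by 0.38 at day 5 (0.16 to 0.61, exact permutation adjusted p 0.0098) and Pcgf3 minus Pcgf5 by -0.48 (-0.66 to -0.29, adjusted p 0.0066), each with 3 of 3 arrays outside the day 0 range. Scmh1 minus Scml2 changed by -0.48 (-0.75 to -0.21, exact permutation adjusted p 0.02), a call lost with the replicate number as a block (exact permutation adjusted p 0.058). Pcgf2 minus Bmi1 did not pass (0.33 at day 3 and 0.05 at day 5, -0.21 to 0.31, exact permutation adjusted p 0.076).

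Genes around the complexes were counted from lists that do not overlap the set. Of 23 other Polycomb partners, 4 were higher and 1 lower at day 1, 2 and 2 at day 3, and 6 and 4 at day 5. These calls are 21.7%, 17.4% and 43.5% of the list, against 10.9%, 26.6% and 35.0% of all genes. The median log2 change was 0.01 at day 5 against -0.02 over all genes. Epop, a PRC2 partner of ES cells, was 0.36 higher at day 1 (adjusted p 0.00195 in limma). Bcorl1, the paralog of Bcor, rose by 0.77 at day 5 and Auts2, a partner of Pcgf3 and Pcgf5, by 0.62 at day 3 and 0.36 at day 5. Tfdp2, the dimer partner of E2f factors, fell by 0.53 at day 5 and Wdr5 by 0.37, while L3mbtl3 rose by 0.50 (adjusted p 9.96e-05 in limma). Sfmbt2 was lower than day 0 at day 3, by 0.45, and higher at day 5, by 0.21 (adjusted p 6.3e-05 and 0.0092 in limma). Of 10 genes of the complex that removes ubiquitin from H2A, 3 were higher at day 3, 30.0% called against 26.6% of all genes. At day 5, 1 was higher and 2 were lower, 30.0% against 35.0%, with Asxl2 at -0.61 and Foxk2 at 0.47. Of the H3K27 demethylases Kdm6b rose by 0.44 at day 5 (adjusted p 0.000134 in limma) and Kdm6a was at -0.05, while the Y-linked paralog Uty fell by 0.25 at day 3 (adjusted p 0.0489) and by 0.39 at day 5 (adjusted p 0.00323).

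Of known targets of the complexes, limma called Hox genes only lower than day 0, and developmental regulators in both directions. Of 37 Hox genes limma called 0 higher at any day, with 1, 13 and 11 of the 37 at an unadjusted p under 0.05 in either direction at days 1, 3 and 5, and 6 lower at day 3 and 6 at day 5, among them Hoxa10 at -0.45 and -0.46. These 6 are 16.2% of the list, beside 13.1% and 17.6% of all genes called lower at days 3 and 5. The 0 called higher stand beside 6.45%, 13.5% and 17.4% of all genes at days 1, 3 and 5. The median log2 change of the Hox genes was -0.12 at day 5, and 36 of the 37 had a mean signal below the median of all genes. Bright genes are called more often, and genes below the median signal were not counted apart. Of 33 developmental regulators listed as Polycomb targets in ES cells, 2 were higher at day 1, 6.06% against 6.45% of all genes. At day 3, 3 were lower, 9.09% against 13.1%. At day 5, 7 were higher, 21.2% against 17.4%, and 3 lower, 9.09% against 17.6%. Their median log2 change at day 5 was 0.00. Polycomb occupancy of these genes was not examined here. Sox17 and Foxa2, endoderm regulators, were 0.80 and 0.73 higher at day 5, Gata3 was 0.74 higher, and Pax6, a neural regulator, fell by 0.78 (adjusted p 1.43e-05 in limma). Some of the 33 lay above the median signal of all genes, 7.33, already at day 0. Sox17 averaged 8.88, Gata4 10.62 and Gata6 10.83 there, whereas Gata3 at 6.86 and Pax6 at 6.87 lay below it. From day 3 to day 5, 9 of the 33 rose and 1 fell, 27.3% and 3.03% against 13.0% and 12.2% of all genes. Over the same step 8 of 16 fibroblast markers rose, and their part in this count was not tested.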

How the data were processed

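Total RNA of 12 cultures was hybridized to Affymetrix Mouse Gene 1.0 ST arrays. Per the labels, the arrays were normalized with RMA in the Affymetrix Expression Console (version not given in the sources used here), and the authors deposited log2 signals, 1 value for each of 35557 probe sets and array. Array number and signal over background limit the precision, scan dates are not given in the sources used here, and RMA values carry no detection call. Probe sets were named by the platform annotation, and the 21789 with a single symbol were averaged to 19938 genes.

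The 35 measured genes, the other lists and the 15 pairs were chosen with earlier results of these data known, and no list was tested as a set. The model, fitted by limma 3.58.1 under R 4.3.3, had 1 mean per day (8 residual and 4.63 prior degrees of freedom), and genes were called at a Benjamini-Hochberg p under 0.05 across the 19938 genes. Days 1, 3 and 5 were compared with day 0, and day 3 with day 1 and day 5 with day 3. All comparisons with day 0 share its 3 arrays. A two-sided permutation test of a single gene between 2 days could not go below p = 0.1. Pair differences were tested two-sided by construction over 15400 partitions. The 95% intervals use the spread within days. All 36 genes were named by rule, with array values for genes called at a log2 change of 0.5 or more, and for Phc1, Cbx7 and Kdm2b, added after their values were seen. From the other lists up to 4 called genes a day were named. Replicate numbers did not pair the cultures (correlations of same-numbered deviations from -0.17 to 0.07 over 18 pairs). The fit was tested on simulated data. Other steps ran in Python 3.11.15 with scipy 1.17.1, pandas 2.3.3, matplotlib 3.10.9 and numpy 2.4.6. Promoters are from RefSeq, GRCm38.p6. The alternatives were another normalization, variance model, probe set rule or signal filter, only the arrays compared, the replicate block, the analysis of variance of the methods, and each array left out.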

Additional observations from a re-analysis of the deposited data

Results flagged for a closer look

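Phc1 and Cbx7 were called higher than day 0 at day 3 and lower at day 5, so their change against day 0 differed between these days. From day 3 to day 5 the log2 signal of Phc1 changed by -0.65 (limma adjusted p 3.44e-06) and that of Cbx7 by -0.53 (limma adjusted p 1.63e-05), each lower on 3 of 3 arrays. Over the same step 8 of 16 fibroblast markers rose and 1 fell, and their part in these changes was not tested.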

How the results depend on the processing

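No log2 change of a Polycomb gene that was called reversed under any alternative. Of the calls against day 0, 2 of 6 at day 1 (Kdm2b and Phf19), 8 of 16 at day 3 and 17 of 23 at day 5 were kept under every alternative, as were 11 of 13 pairs. The counts out of 19 alternatives leave out the test of every probe set. That test lost the day 1 calls of Aebp2, Mtf2, Bcor and Pcgf6. At day 3 it lost Bcor, Cbx2, Cbx7 and Pcgf6, and at day 5 Phc2 and Rybp. Scml2 could not be followed where genes below the median signal were left out, and Cbx6, on a shared probe set, left its planned pair with Cbx7 not run. The 7 increases at day 3 became 2 with arrays centred on their medians, 3 with only the arrays of the days compared, 3 with every probe set tested, and 2 to 7 with 1 array left out (2 without day 3 replicate 2). From day 1 to day 3 the 2 genes called higher became 4 with quantile normalization, 4 with a trended robust variance, 0 with median centring and 0 to 2 with 1 array left out. At day 1 the 3 lower genes became 1 with only the arrays compared and 1 to 3 with 1 array left out, and the 3 higher became 1 with every probe set tested and 1 to 4 with 1 array left out. At day 5 the 11 higher became 7 without day 5 replicate 3 and were 7 to 11 over all arrays left out. With the replicate number as a block, day 3 against day 1 had 1 higher gene, and Scmh1 minus Scml2 no longer passed (exact permutation adjusted p 0.058). The block changed no other count by over 1.5 times. The one-way analysis of variance of the methods, with Bonferroni adjustment, called 3 genes over the course and 0 with the further demand of a 2-fold change, against 27 in limma. Without day 5 replicate 1 the changes at day 5 of Ezh2 minus Ezh1 and of Pcgf2 minus Bmi1 turned to -0.0725 and -0.0599, and both pairs passed over the course (exact permutation adjusted p 0.041 and 0.031). With each array left out in turn these changes ran from -0.0725 to 0.1334 and from -0.0599 to 0.12. The cause was not tested.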
